A study of Mus musculus with 13 samples.

Results

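The genes described here are 9 genes of insulin signaling and GLUT4 trafficking, taken by name as *Insr*, *Irs1*, *Irs2*, *Pik3r1*, *Akt2*, *Tbc1d4*, *Slc2a4*, *Trarg1* and *Lnpep*. All 9 were found among the 33618 genes of the count table, and all 9 passed the filter on low counts. Whole parametrial WAT (pmWAT) was collected from female mice 2 weeks after tamoxifen, and its mRNA was sequenced in 1 library per mouse. The 7 control mice were *Lmna* fl/fl, with loxP sites around exons 10 and 11 of both *Lmna* alleles and no Cre. The 6 *Lmna* iADKO mice carried the same floxed alleles and *Adipoq*-CreERT2, a tamoxifen-dependent Cre driven by the adiponectin promoter and so meant for adipocytes. Mice of both genotypes received tamoxifen at 50 mg/kg for 5 days at 12 to 14 weeks of age, so the groups differ in CreERT2 as well as in recombination of *Lmna*, and these cannot be told apart.

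In fat cells, insulin binds its receptor, a tyrosine kinase, which phosphorylates adaptor proteins of the IRS family. The adaptors recruit PI 3-kinase, whose lipid product brings the kinase AKT to the membrane, where AKT phosphorylates the Rab GTPase-activating protein AS160. Vesicles loaded with the glucose transporter GLUT4 then fuse with the plasma membrane, and this step is what makes glucose uptake in fat and muscle respond to insulin. Messenger RNA levels say nothing about phosphorylation or about where the proteins are in the cell.

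Levels are given as CPM, read counts scaled to a common library size, after adjustment by TMM, a factor per library that makes the bulk of genes comparable. A gene was called changed at an adjusted p under 0.05 in the quasi-likelihood test of edgeR over 16753 genes, and log2 fold changes are iADKO minus fl/fl. Between 18854223 and 19776491 reads per library were counted. By this test 2737 genes were lower and 2367 were higher in iADKO. Of the called genes 46.4% were higher, and this share was 85.3% when libraries were scaled by their totals alone, which moved the median log2 fold change of all genes from 0.03 to 0.24. TMM factors ran from 0.892 to 1.02 for the controls and from 1.05 to 1.10 for the knockouts. The 10 most counted genes held 9.54% to 14.3% of a control library and 6.51% to 9.12% of a knockout library. *Lmna* itself, the targeted gene, was at 74.7 to 98.5 CPM in fl/fl and 80.1 to 109 CPM in iADKO (log2 fold change 0.19, edgeR adjusted p = 0.0785). It was thus not lower in the libraries labelled iADKO, and since the counts are for the whole gene, exons 10 and 11 cannot be read apart and the directions below rest on the labels.

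Markers of 9 cell types were read beside the genes. Adipocyte markers, among them *Adipoq*, *Plin1* and *Fabp4*, were detected in every library and identified the tissue as fat, and 9 of the 10 were lower in iADKO with a median log2 fold change of -0.75. Their summed level was 17763 to 27107 CPM in fl/fl and 11210 to 19265 CPM in iADKO. Macrophage markers ran the other way: 5 of 9 were higher (median 0.67), with summed levels of 1976 to 5304 CPM in fl/fl and 3066 to 5307 CPM in iADKO. Of the T cell markers 3 of 6 were higher, of the B cell markers 2 of 5, and of the endothelial markers 2 of 6, *Cdh5* and *Kdr*, were lower. No marker of progenitor (6 genes), mesothelial (5), mural (5) or skeletal muscle cells (7) was called by edgeR, while 1, 1, 3 and 0 of them had an unadjusted p under 0.05 and 0, 1, 1 and 0 were called by DESeq2. The part of these cell types in the results below was not tested, and in whole tissue fewer adipocytes and less RNA of a gene per adipocyte cannot be told apart. A pair of libraries stood apart. The mouse fl/fl 5 had the lowest adipocyte and highest macrophage markers of its genotype and iADKO 6 had the highest adipocyte and lowest macrophage markers of its own, so the main counts are also given without this pair.

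Of the 9 genes, 7 were lower in iADKO, none was higher and 2 were not called. Across all genes tested, 30.5% were called, 16.3% lower and 14.1% higher. The median log2 fold change of the 9 genes was -0.54, beside 0.03 for all genes. No member was higher at an unadjusted p under 0.05 in edgeR, by the Wald test of DESeq2 or by limma on the deposited log2 values. Leaving out fl/fl 5 and iADKO 6 left 7 lower and 0 higher. This pair was picked after seeing that its markers lay nearest the other genotype, so that count is no independent check of the calls. Scaling by library totals alone gave 4 lower and 0 higher, and so did a fit with the animal-number series as a term. Over all genes, library totals gave 1276 lower and 7397 higher, and the term for the series gave 1202 and 784. These series, A to D, were drawn here from the animal numbers in the library names, and what the numbers stand for is not given. The grouping followed no fixed gap. Animal 765 (iADKO 1) was kept in series C with 750, while 722 (series B) was split from 707 (series A), which is as far away. The series term and all within-series values depend on this choice, and no other grouping was tried. With library totals and with the series term alike, *Irs1*, *Pik3r1* and *Tbc1d4* were not called and kept their sign.

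**Figure D1:**
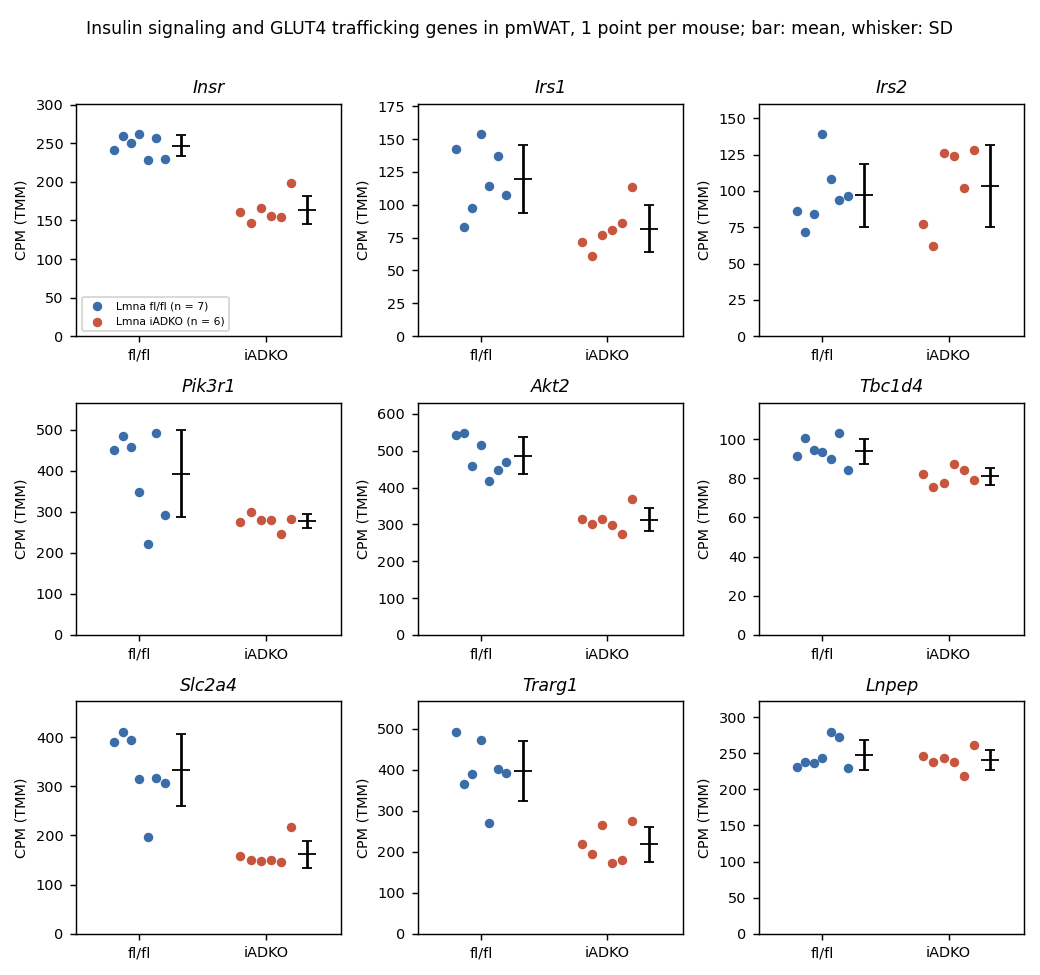
Level of each of the 9 genes in CPM (y axis, from 0) in 7 *Lmna* fl/fl (blue) and 6 *Lmna* iADKO mice (red), 1 point per mouse, with the mean and SD of each genotype beside the points. For *Insr* and *Akt2* every iADKO mouse lies below every fl/fl mouse, while *Irs2* and *Lnpep* cover the same range in both genotypes.

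*Insr* (ENSMUSG00000005534, GRCm39 chr8:3172061-3329647, minus strand) encodes the insulin receptor. It was at 228, 250 and 262 CPM (lowest, median and highest of 7 mice) in fl/fl and at 147, 158 and 198 CPM in 6 iADKO mice. Every iADKO mouse was below every fl/fl mouse. On average *Insr* fell from 247 ± 14.0 (SD, n = 7) to 164 ± 18.1 CPM (SD, n = 6), and so fell by 0.59 on the log2 scale (SE 0.069, edgeR adjusted p = 0.000168). *Insr* is also made by endothelial cells, for which 2 of 6 markers were lower and the summed level was 819 to 1139 CPM in fl/fl and 860 to 996 CPM in iADKO.

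The adaptors *Irs1* and *Irs2* couple the receptor to PI 3-kinase, and they are the main pair of IRS proteins in mouse tissues. *Irs1* (ENSMUSG00000055980, chr1:82210822-82269338, minus strand) was at 83.0, 114 and 154 CPM in fl/fl and 61.2, 79.0 and 113 CPM in iADKO. The ranges overlapped, with the highest iADKO mouse, iADKO 6, about level with the fl/fl median. The log2 fold change of *Irs1* was -0.54 (SE 0.16, edgeR adjusted p = 0.0198). *Irs2* (ENSMUSG00000038894, chr8:11034681-11059499, minus strand) was at 71.8, 93.5 and 139 CPM in fl/fl and 62.1, 113 and 128 CPM in iADKO. Its genotypes covered the same range, and it was not called (log2 fold change 0.09, 95% confidence interval -0.31 to 0.49, edgeR adjusted p = 0.739). Within a genotype the adaptors ran together in the extreme mice: fl/fl 4 was highest and fl/fl 2 lowest of the controls for both, and iADKO 6 was highest and iADKO 2 lowest of the knockouts for both.

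The test of the difference between the adaptors is their ratio within a mouse, which does not depend on how libraries are scaled. The log2 ratio of *Irs2* to *Irs1* counts was -0.30 ± 0.24 (SD, n = 7) in fl/fl and 0.31 ± 0.29 (SD, n = 6) in iADKO. It ran from -0.72 to -0.08 in fl/fl and from 0.02 to 0.71 in iADKO, so it lay below 0 in 7 of 7 controls and above 0 in 6 of 6 knockouts, on a scale of counts that is not per length. The difference was 0.61 (95% interval 0.28 to 0.94, exact two-sided permutation p = 0.000583, the smallest that 1716 splits can give, adjusted over 7 ratios p = 0.00204). It was 0.51 among the 4 mice of animal-number series B and 0.44 among the 5 of series C. No test was made within a series, and the series A and D held mice of 1 genotype each.

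The 250 bases before the transcription start of each adaptor gene are shown because the pair moved apart. Capitals mark the motif GGGCGG, the GC-box, on either strand (as CCGCCC on the other), and the sequence is that of the gene's strand on GRCm39. The *Irs1* window is chr1:82269339-82269588 and the *Irs2* window chr8:11059500-11059749, both on the minus strand.
Irs1: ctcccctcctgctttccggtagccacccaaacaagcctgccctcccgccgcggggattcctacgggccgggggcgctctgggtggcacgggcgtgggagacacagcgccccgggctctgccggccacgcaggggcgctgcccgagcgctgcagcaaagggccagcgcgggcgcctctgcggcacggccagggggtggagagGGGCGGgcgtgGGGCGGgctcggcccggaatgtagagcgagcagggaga
Irs2: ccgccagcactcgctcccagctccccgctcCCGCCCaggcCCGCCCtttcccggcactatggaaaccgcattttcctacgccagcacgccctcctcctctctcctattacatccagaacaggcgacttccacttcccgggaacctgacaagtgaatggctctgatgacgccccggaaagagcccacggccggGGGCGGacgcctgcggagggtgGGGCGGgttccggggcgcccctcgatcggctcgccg
The *Irs1* window holds 2 GC-boxes and the *Irs2* window 4, and 34.9% of the windows of 21770 protein-coding genes hold at least 1. The GC content was 75.6% and 68.4%, against a median of 52.8% over all windows. Of the other 6 motifs searched on both strands, neither window holds a match. These were the FOXO motif (TGTTTAC), the E-box (CACGTG), the CCAAT-box (letters as in its name), the C/EBP motif (TTGCNNAA) and the nuclear receptor half-site (AGGTCA). The last was a loose MEF2-like pattern, CTA and TAG with 4 bases of any kind between, which does not by itself define a MEF2 site.

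*Pik3r1* (ENSMUSG00000041417, chr13:101817071-101904725, minus strand) encodes regulatory subunits of PI 3-kinase, which dock on the phosphorylated adaptors. It was at 221, 452 and 492 CPM in fl/fl and at 246, 280 and 301 CPM in iADKO. The controls were spread widely and the knockouts were not, and fl/fl 5 was below every iADKO mouse. With means of 392 ± 106 (SD, n = 7) against 277 ± 17.7 CPM (SD, n = 6), *Pik3r1* fell by 0.50 on the log2 scale (SE 0.16, edgeR adjusted p = 0.0318). The call was lost without fl/fl 1, 2, 3 or 6 and without iADKO 1, 3, 4 or 5, each left out alone (adjusted p 0.0551 to 0.0702). The log2 CPM difference was 0.01 within animal-number series B, which holds fl/fl 4 and 5 and iADKO 4 and 6, and -0.69 within series C.

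*Akt2* (ENSMUSG00000004056, chr7:27284378-27340262, plus strand) encodes the AKT isoform most closely tied to GLUT4 movement in fat cells. It was at 418, 470 and 548 CPM in fl/fl and at 274, 308 and 368 CPM in iADKO, again with no overlap between the genotypes. *Akt2* fell by 0.64 on the log2 scale (SE 0.083, edgeR adjusted p = 0.000275), from 486 ± 50.1 (SD, n = 7) to 312 ± 31.1 CPM (SD, n = 6). *Akt2* and *Insr* were the 2 of the 9 genes whose genotypes did not overlap, where 3.93% of all genes were lower and 2.71% higher in iADKO without overlap. *Akt1*, the widely expressed isoform, was at 152 to 177 CPM in fl/fl and at 164 to 196 CPM in iADKO and was not called (log2 fold change 0.12, edgeR adjusted p = 0.113). The log2 ratio of *Akt2* to *Akt1* was 1.56 ± 0.20 (SD, n = 7) in fl/fl and 0.80 ± 0.21 (SD, n = 6) in iADKO. The ratio was lower in 6 of 6 iADKO mice than in any control, with a difference of -0.76 (95% interval -1.01 to -0.51, exact permutation p = 0.000583, adjusted p = 0.00204). Within series B and C it was -0.52 and -0.99.

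*Tbc1d4* (ENSMUSG00000033083, chr14:101679135-101846739, minus strand) encodes AS160, which holds GLUT4 vesicles inside the cell until AKT phosphorylates it. It was at 84.1, 93.2 and 103 CPM in fl/fl and at 75.7, 80.6 and 87.1 CPM in iADKO. The groups overlapped at their edges, and the mice of each group lay close together. *Tbc1d4* fell by 0.21 on the log2 scale (SE 0.054, edgeR adjusted p = 0.00937), the smallest change among the 7 genes called, and with library totals alone its log2 fold change was -0.01 and not called. Its paralog *Tbc1d1* rose by 0.28 on the log2 scale (SE 0.06, edgeR adjusted p = 0.00407), from 37.9 ± 3.47 (SD, n = 7) to 46.0 ± 2.22 CPM (SD, n = 6). The log2 ratio of *Tbc1d4* to *Tbc1d1* was 1.01 to 1.62 in fl/fl and 0.71 to 0.92 in iADKO, with no overlap. The difference of -0.49 (95% interval -0.67 to -0.31) had an exact permutation p of 0.00117 (adjusted p = 0.00204), and it was -0.34 and -0.51 within series B and C.

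*Slc2a4* (ENSMUSG00000018566, chr11:69831006-69839070, minus strand) encodes GLUT4, and it fell furthest of the 9 genes. It was at 197, 317 and 411 CPM in fl/fl and at 147, 150 and 217 CPM in iADKO. A single mouse on each side broke the separation: fl/fl 5, at 197 CPM, was below iADKO 6, at 217 CPM, while the other 5 knockouts lay between 147 and 159 CPM. *Slc2a4* fell from a mean of 333 ± 74.0 (SD, n = 7) to 162 ± 27.2 CPM (SD, n = 6); it fell by 1.04 on the log2 scale (SE 0.15, edgeR adjusted p = 0.000556). Without fl/fl 5 and iADKO 6 the log2 fold change was -1.26, a value that leaving out the mice nearest the other genotype was bound to enlarge and that is given with no test. Within animal-number series B, to which both mice belong, the log2 CPM difference was -0.46 (2 and 2 mice), and within series C it was -1.37 (3 and 2 mice). Skeletal muscle also makes GLUT4, and its markers summed to 17.8 to 389 CPM in fl/fl and 11.4 to 217 CPM in iADKO. Exons of *Slc2a4* overlap exons of *Ybx2* on the other strand by 242 bases, and *Ybx2* had 2487 counts over all 13 libraries.

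*Trarg1* (ENSMUSG00000046275, chr11:76570469-76589490, plus strand) encodes a membrane protein of GLUT4 vesicles that regulates GLUT4 trafficking, and *Lnpep* (ENSMUSG00000023845, chr17:17741672-17845312, minus strand) encodes the aminopeptidase IRAP, which travels in the same vesicles. *Trarg1* was at 270, 392 and 493 CPM in fl/fl and at 173, 207 and 275 CPM in iADKO, and fl/fl 5 and iADKO 6 were again the overlapping mice. Its log2 fold change was -0.87 (SE 0.14, edgeR adjusted p = 0.000959), and it was -0.71 and -0.995 as log2 CPM differences within series B and C. *Lnpep* was at 229, 237 and 280 CPM in fl/fl and at 219, 240 and 261 CPM in iADKO. The *Lnpep* genotypes covered the same range (log2 fold change -0.04, 95% confidence interval -0.17 to 0.10, edgeR adjusted p = 0.677), and with library totals alone the value was 0.16 and not called.

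The vesicle genes thus moved unequally within a mouse. The log2 ratio of *Lnpep* to *Slc2a4* was -0.40 ± 0.46 (SD, n = 7) in fl/fl and 0.58 ± 0.16 (SD, n = 6) in iADKO, a difference of 0.98 (95% interval 0.55 to 1.36, exact permutation p = 0.00175, adjusted p = 0.00245). The control fl/fl 5, at 0.50, was the one that lay within the range of the knockouts. Within series B and C the difference was 0.40 and 1.41. The log2 ratio of *Trarg1* to *Slc2a4* did not pass the test, at 0.27 ± 0.27 (SD, n = 7) and 0.42 ± 0.22 (SD, n = 6), with a difference of 0.15 (95% interval -0.14 to 0.46, exact permutation p = 0.301, adjusted p = 0.301). That interval leaves room for an unequal change of either sign, and the difference was -0.25 within series B and 0.37 within series C.

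The 250 bases before the start of *Slc2a4* are shown because it had the largest fall. The window is chr11:69839071-69839320 on the minus strand of GRCm39, and capitals mark matches to the 7 motifs.
Slc2a4: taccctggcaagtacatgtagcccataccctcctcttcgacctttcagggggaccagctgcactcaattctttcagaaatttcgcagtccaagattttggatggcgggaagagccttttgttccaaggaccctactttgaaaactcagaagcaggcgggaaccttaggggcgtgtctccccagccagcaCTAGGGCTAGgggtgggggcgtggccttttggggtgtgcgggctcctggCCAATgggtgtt
The *Slc2a4* window holds CCAAT 12 bases before the start on the strand shown. It holds the loose MEF2-like pattern 61 bases before the start. The 4 free bases there are GGGC, and the match is not shown to be a MEF2 site. Of all 21770 windows, 3.35% hold this loose pattern and 36.2% hold CCAAT or its reverse complement. Among the 9 windows, the MEF2-like pattern was in 1 and the C/EBP motif in 1 (*Tbc1d4*). The GC-box was in 4 (*Irs1*, *Irs2*, *Pik3r1* and *Akt2*) and CCAAT in 4 (*Insr*, *Pik3r1*, *Tbc1d4* and *Slc2a4*). FOXO, E-box and half-site motifs were in none of the 9 and in 2.78%, 6.06% and 13.2% of all windows, and the C/EBP motif was in 9.49%.

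**Figure D2:**
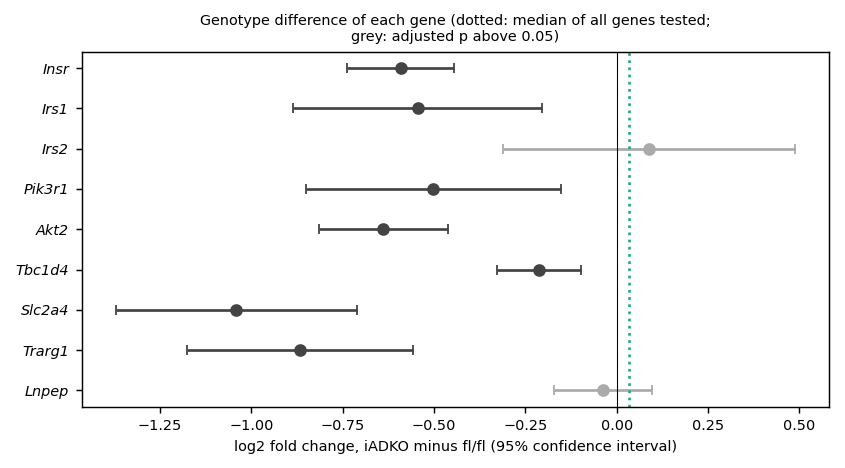
Log2 fold change of each gene, iADKO minus fl/fl (x axis), with its 95% confidence interval from edgeR, in the order receptor to vesicle. The 7 black points, from -1.04 (*Slc2a4*) to -0.21 (*Tbc1d4*), passed the adjusted threshold, the grey points of *Irs2* and *Lnpep* did not, and the dotted line is the median of all genes tested at 0.03.

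*Slc2a1* encodes GLUT1, a transporter whose place at the membrane depends less on insulin than that of GLUT4, and it moved against *Slc2a4*. It was at 16.5, 18.7 and 25.4 CPM in fl/fl and at 23.0, 26.7 and 29.0 CPM in iADKO. *Slc2a1* rose by 0.45 on the log2 scale (SE 0.10, edgeR adjusted p = 0.00548), with overlap between the genotypes. The log2 ratio of *Slc2a4* to *Slc2a1* was 3.11 to 4.54 in fl/fl and 2.35 to 3.08 in iADKO, with fl/fl 5 lowest of the controls and iADKO 6 highest of the knockouts, side by side. The difference was -1.48 (95% interval -1.99 to -0.94, exact permutation p = 0.00117, adjusted p = 0.00204), and it was -0.91 and -1.80 within series B and C.

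Set against the adipocyte markers, *Slc2a4* showed no difference that passed the test. Its log2 ratio to the mean of the 10 markers was -1.89 ± 0.27 (SD, n = 7) in fl/fl and -2.10 ± 0.13 (SD, n = 6) in iADKO. The difference was -0.20 (95% interval -0.47 to 0.04, exact permutation p = 0.110, adjusted p = 0.128), so a fall of *Slc2a4* of up to 0.47 beyond that of the markers lies within the interval. Without fl/fl 5 the difference was -0.25 with an adjusted p of 0.048, and without both fl/fl 5 and iADKO 6 it was -0.23 with an adjusted p of 0.116. Within series B and C it was -0.04 and -0.34. The markers share libraries and scaling with *Slc2a4*, and *Pparg* and *Cebpa*, which regulate fat cell genes, are among them.

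**Figure D3:**
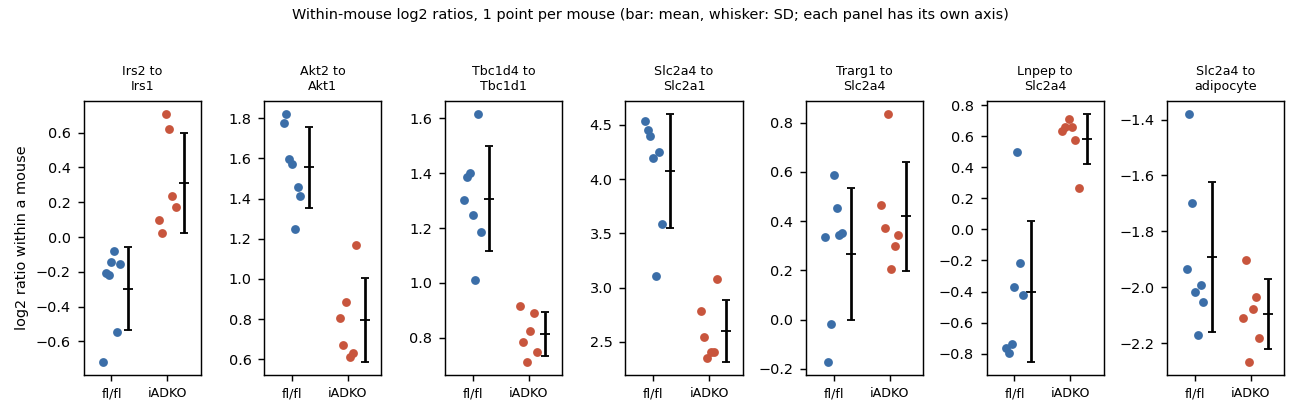
Log2 ratio of the levels of a pair of genes within each mouse (y axis, a separate scale per panel) in fl/fl (blue, n = 7) and iADKO (red, n = 6), with mean and SD. The points of the genotypes do not overlap for *Irs2* to *Irs1*, *Akt2* to *Akt1*, *Tbc1d4* to *Tbc1d1* and *Slc2a4* to *Slc2a1*, and they overlap for the ratios of *Trarg1* and *Lnpep* to *Slc2a4* and of *Slc2a4* to the adipocyte markers.

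**Figure D4:**
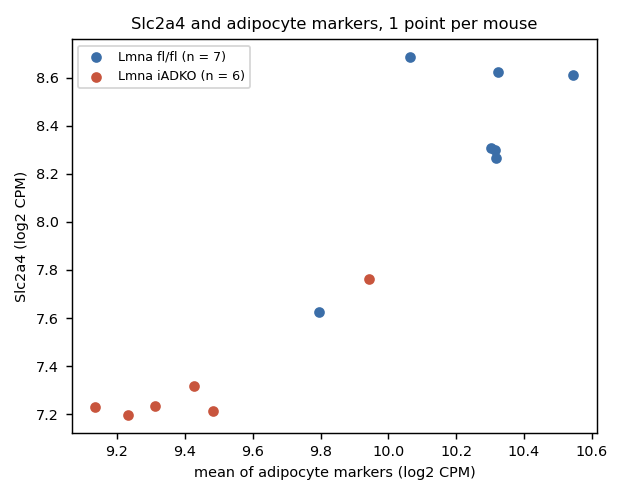
Level of *Slc2a4* (y axis, log2 CPM) against the mean of 10 adipocyte markers (x axis, log2 CPM), 1 point per mouse. The mice fl/fl 5 (lowest blue point) and iADKO 6 (highest red point) lie next to each other between the other 6 controls and the other 5 knockouts.

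Levels of different genes can be compared only per length of transcript, here as RPKM, the CPM divided by the length of the union of a gene's exons in kilobases. In fl/fl the order was *Trarg1* (115 ± 21.1 RPKM), *Slc2a4* (63.9 ± 14.2), *Akt2* (37.5 ± 3.87), *Pik3r1* (36.6 ± 9.86), *Insr* (17.9 ± 1.01), *Lnpep* (17.5 ± 1.46), *Irs2* (13.2 ± 2.95), *Irs1* (12.8 ± 2.76) and *Tbc1d4* (9.06 ± 0.624, SD, n = 7 for each). The neighbours *Akt2* and *Pik3r1*, *Insr* and *Lnpep*, *Lnpep* and *Irs2*, and *Irs2* and *Irs1* lay within their summed SDs. In iADKO *Trarg1* was at 62.9 ± 12.5 RPKM (SD, n = 6), and *Slc2a4* (31.1 ± 5.22) lay within the summed SDs of *Pik3r1* (25.8 ± 1.65), as did *Lnpep* (17.0 ± 0.976) of *Irs2* (14.0 ± 3.82) and *Irs2* of *Insr* (11.9 ± 1.31). The iADKO neighbours *Pik3r1* and *Akt2* (24.1 ± 2.40), *Insr* and *Irs1* (8.76 ± 1.89), and *Irs1* and *Tbc1d4* (7.81 ± 0.413) also lay within their summed SDs. The order depended on the length used. Over the canonical transcript, an alternative added after seeing the data, *Slc2a4* was at 128, *Trarg1* at 115 and *Akt2* at 106 RPKM in fl/fl. In iADKO, by the same length, *Akt2* was at 68.0, *Trarg1* at 62.9 and *Slc2a4* at 62.1 RPKM, and *Insr* (17.5) stood above *Irs2* (14.0).

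By a rule that took the 5 highest Pearson correlations of log2 CPM over the 13 libraries among 13853 genes, the genes most like *Slc2a4* were *Tmem120b*, *Txnrd3*, *Dmtn*, *Slc25a1* and *Nckap1*, with r between 0.986 and 0.990. After each genotype's mean was subtracted they were *Prkd1*, *Dmtn*, *Nckap1*, *Tmem120b* and *Txnrd3*, with r between 0.956 and 0.959. These are descriptions of the same 13 libraries, in which fl/fl 5 and iADKO 6 lie far from their genotype means for *Slc2a4*. *Tmem120b* encodes a membrane protein of the nuclear envelope linked to fat cell differentiation, and *Slc25a1* encodes the mitochondrial citrate carrier, which exports carbon for fatty acid synthesis.

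Among 104 other genes of the pathway, 103 were tested, of which 30 were lower, 12 higher and 61 not called, with a median log2 fold change of -0.06. Over all genes tested 16.3% were lower and 14.1% higher, shares against which each list below is to be read. Without fl/fl 5 and iADKO 6 the counts were 40 lower and 20 higher, and without fl/fl 5 alone 35 and 21. Calls over all genes rose as well, to 3910 lower and 3282 higher of 16769 genes without the pair and to 3285 and 3319 of 16638 without fl/fl 5. The split depended on scaling: with library totals alone 18 were lower and 51 higher, and over all genes 1276 of 16753 were lower and 7397 higher. The called genes named in the next paragraphs had edgeR adjusted p between 0.000168 (*Rhoq*) and 0.0433 (*Grb14*) and standard errors between 0.048 (*Rictor*) and 0.39 (*Slc2a5*) on the log2 scale.

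Of 9 adaptors next to the receptor, 3 were lower and 2 higher (median 0.05). *Sh2b2* (APS), an adaptor that binds the activated receptor, fell by 0.85 on the log2 scale (84.0 to 46.6 CPM), and *Irs3*, an adaptor of rodent fat, fell by 0.80. *Cbl*, a ubiquitin ligase that *Sh2b2* brings to the receptor, was higher by 0.35, and *Grb2*, which leads to the RAS pathway, by 0.30.

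In PI 3-kinase, PDK1, mTORC2 and AKT (12 genes), 3 were lower and 3 higher (median -0.07). *Mtor* and *Pik3cb*, a catalytic subunit of PI 3-kinase, each fell by 0.44 on the log2 scale, and *Mapkap1*, a subunit of mTORC2, fell by 0.19. *Pik3cd*, the catalytic subunit known from leukocytes, rose by 0.59, beside the higher macrophage markers, and a link between them was not tested. *Rictor*, which defines mTORC2, was higher by 0.14. Of 14 negative regulators, 1 was lower and 2 were higher (median 0.07), beside 16.3% lower and 14.1% higher of all genes. The receptor inhibitor *Grb14* rose by 0.56 from 3.61 to 5.31 CPM, and *Pik3ip1*, which inhibits PI 3-kinase, rose by 0.29.

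Downstream of AKT, 6 of 23 genes for RabGAPs, Rabs, the exocyst and their partners were lower and 2 were higher (median -0.06). *Ralgapa2*, a subunit of the RalGAP complex that AKT phosphorylates, fell by 0.92 on the log2 scale (275 to 146 CPM), *Rhoq*, the GTPase TC10, fell by 0.54, and *Myo1c*, a motor that moves GLUT4 vesicles near the membrane, fell by 0.34. *Tbc1d1* (above) and *Dennd4c*, an exchange factor for RAB10, were higher, the latter by 0.21. Of 11 genes for GLUT4 vesicle cargo and tethers, 3 were lower and 1 higher (median -0.07): the sorting receptor *Sort1* (sortilin) fell by 0.67, the transferrin receptor *Tfrc* by 0.61 and the tether *Aspscr1* (TUG) by 0.32, while *Vamp8* rose by 0.29. The fusion machinery held 1 lower and 1 higher of 7 (median 0.07), with *Esyt1* at -0.17 and *Stxbp3* (MUNC18C) at 0.23.

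Of 12 AKT substrates and mTORC1 genes, 5 were lower and none was higher (median -0.18), and none was higher at an unadjusted p under 0.05, by DESeq2 or by limma. Without fl/fl 5 and iADKO 6 the counts in this list were 8 lower and 1 higher, and with library totals alone 4 lower and 3 higher. *Pde3b*, the phosphodiesterase through which insulin restrains lipolysis, fell by 0.93 on the log2 scale (387 to 204 CPM), *Eif4ebp1* by 0.52 and *Rps6kb1*, the kinase S6K1, by 0.38. Of 6 other glucose transporters, 3 were lower and 1 higher (median -0.26). *Slc2a5*, a fructose transporter, fell by 1.88 (23.1 to 6.25 CPM), *Slc2a12* by 0.56 and *Slc2a8* by 0.43. Of 9 tested regulators of *Slc2a4* transcription, 5 were lower and none was higher (median -0.22), again with none higher at an unadjusted p under 0.05, by DESeq2 or by limma. Here 5 were lower and 1 higher without fl/fl 5 and iADKO 6, and with library totals alone the balance turned to 3 lower and 4 higher. Over all genes that scaling gave 1276 lower and 7397 higher. The genes lower in the main comparison included *Cebpa* (-0.75), *Pparg* (-0.70) and *Klf15* (-0.62), whereas *Mef2a*, *Mef2c* and *Mef2d* were at 0.12, 0.14 and 0.07 and were not called. *Cebpa* and *Pparg* are also among the adipocyte markers above, so this list and the markers are not separate.

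Some of these calls were lost when 1 mouse was left out or when the fit was changed. Calls over all genes moved as well, from 2737 lower and 2367 higher to 2229 and 1769 without fl/fl 1. Without fl/fl 5 they were 3285 and 3319. *Dennd4c* was called on leaving out fl/fl 5, fl/fl 6 or iADKO 6 and lost its call without any of the other 10 (adjusted p up to 0.0856). *Grb14* was called without fl/fl 1, 5 or 7 or iADKO 4 and *Esyt1* without fl/fl 2, 5 or 7 or iADKO 4, and each lost its call without the other 9 (up to 0.0909 and 0.0944). *Rictor* lost its call without fl/fl 1, 2 or 3 or iADKO 1, 3 or 5 (up to 0.0753), and *Mapkap1* without fl/fl 1 or 3 or iADKO 2, 3 or 5 (up to 0.0598). *Mapkap1* and *Esyt1* turned to 0.014 and 0.034 with library totals alone, and *Tfrc*, *Aspscr1* and *Myo1c* lost their calls under that scaling. With no filter on low counts the calls of *Tfrc*, *Grb14*, *Rictor*, *Dennd4c* and *Esyt1* were lost. With the animal-number series as a term, those of *Tfrc*, *Aspscr1*, *Myo1c*, *Eif4ebp1*, *Pparg*, *Cbl*, *Grb2*, *Pik3cd*, *Pik3ip1*, *Vamp8*, *Stxbp3*, *Grb14*, *Rictor*, *Dennd4c*, *Esyt1* and *Mapkap1* were lost.

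**Figure D5:**
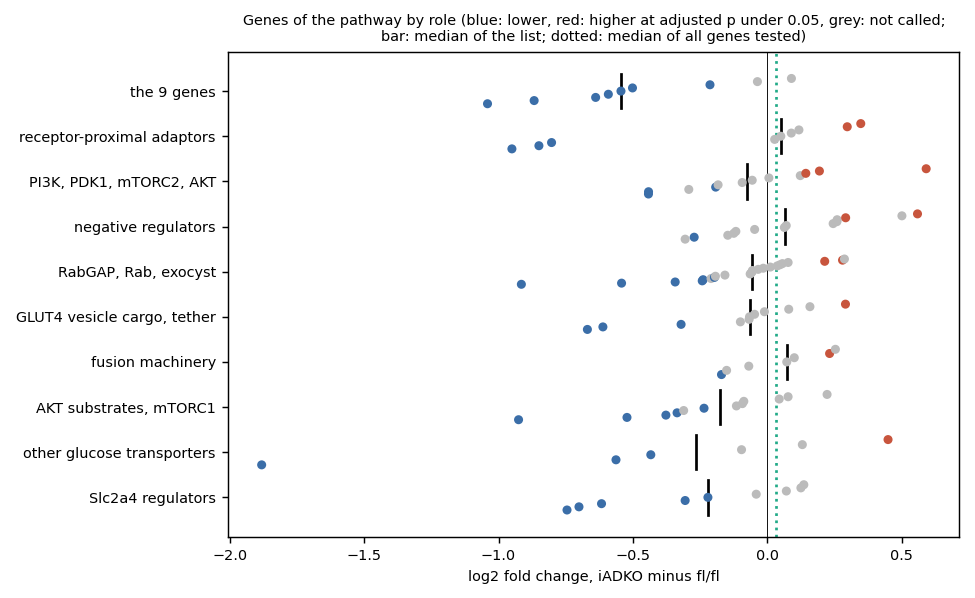
Log2 fold change, iADKO minus fl/fl (x axis), of the 9 genes (top row) and of 103 other genes of the pathway by role, 1 point per gene, blue if lower and red if higher at an adjusted p under 0.05 and grey otherwise. The bar of the top row stands at -0.54, left of every other list's median (-0.26 to 0.07), and most lists have called genes on both sides of 0.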

How the data were processed

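Bulk RNA-Seq of pmWAT was analyzed for 7 fl/fl and 6 iADKO mice, grouped by the sample labels. The authors deposited raw counts per gene and log2 values from the rlog of DESeq2. Per the labels and the paper's methods, strand-specific paired reads were checked with FastQC 0.12.1 and aligned with STAR 2.7.11a to mm39, and the counting tool and annotation are not given in the sources used here. A fold change was computed here and not taken from the deposited values.

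Counts were filtered with filterByExpr, normalized by TMM and tested with edgeR 4.0.16 (robust quasi-likelihood, R 4.3.3), with Benjamini-Hochberg adjustment over 16753 genes and a threshold of 0.05. Log2 CPM used a prior count of 2. Log2 ratios within a mouse were compared by exact two-sided permutation over all splits into 7 and 6, with intervals by inversion of that test and adjustment over 7 ratios. The main counting precision came from 18854223 to 19776491 counts per library, and errors are spreads between mice, which include counting error.

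The alternatives were DESeq2 size factors, library totals, the Wald test of DESeq2 1.42.0, 2 other filters on low counts (none, and a minimum of 10 counts per library throughout), a block for the replicate number or for the animal-number series, limma 3.58.1 on the rlog values and each mouse left out, and for ratios a prior count of 0.5 and the rlog values. Leaving out fl/fl 5 and iADKO 6 together was added after seeing the data. The test was checked on simulated counts. The 9 genes, the other lists, the ratios and the rules were chosen with earlier results of these data known. Named are the 9 genes, the genes of the ratios, up to 3 genes per list and direction with the largest change among those called, the 5 genes most correlated with *Slc2a4* by each measure, and *Lmna*, and *Mef2a*, *Mef2c* and *Mef2d* were named after their values were seen, as were *Cdh5*, *Kdr* and the adipocyte markers given as examples.

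Of 170 listed symbols, 169 were found in GENCODE vM39 (GRCm39, the build called mm39), with *Stx4* as *Stx4a*. *Slc2a4rg* was not matched. Transcription starts were taken as the most upstream annotated start within 100 bases of the canonical one. Results for a few genes and 1 sequence are left out of the text, although those genes are in the counts and medians of their lists.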

Additional observations from a re-analysis of the deposited data

Results flagged for a closer look

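Among 32 groups of 6 or 7 mice tested (the level of each of the 9 genes and each of the 7 ratios, per genotype), 3 held a mouse whose gap to its nearest neighbour, as a share of the group's range, exceeded Dixon's critical value, and chance alone flags about 1 in 20 groups. For *Slc2a4*, fl/fl 5 was the lowest of its genotype at 7.63 log2 CPM (gap share 0.603), and iADKO 6 was the highest of its genotype at 7.76 log2 CPM (gap share 0.791). For the log2 ratio of *Lnpep* to *Slc2a4*, iADKO 6 was the lowest of its genotype at 0.27 (gap share 0.697). The same mice had the lowest and the highest adipocyte markers of their genotypes, with summed levels of 17763 and 19265 CPM, and both belong to animal-number series B. The cause was not tested.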

How the results depend on the processing

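The calls of *Insr*, *Akt2*, *Slc2a4* and *Trarg1* and their direction held in each of 22 alternative fits. With library totals alone, 1276 genes were lower and 7397 higher over all genes. Scaling by library totals alone gave 4 lower members in place of 7, 18 lower and 51 higher other pathway genes in place of 30 and 12, and log2 fold changes of 0.16 for *Lnpep*, 0.034 for *Esyt1* and 0.014 for *Mapkap1*, all 3 of opposite sign to the value reported and not called; it took the calls of *Irs1* (adjusted p = 0.0747), *Pik3r1* (0.110) and *Tbc1d4* (0.890). With the animal-number series as a block 4 members were lower, 17 other pathway genes were lower and 2 higher, *Irs2* turned to -0.10 (not called), and the calls of *Irs1* (0.0523), *Pik3r1* (0.193) and *Tbc1d4* (0.0756) were lost; 1202 genes were lower and 784 higher over all genes. With no filter on low counts 6 members were lower, *Pik3r1* being lost (0.0709). Leaving out 1 mouse at a time gave 6 to 7 lower and 0 higher members, 27 to 35 lower and 8 to 21 higher other pathway genes, and a log2 ratio of *Slc2a4* to the adipocyte markers of -0.25 to -0.12, which passed without fl/fl 5. Without both fl/fl 5 and iADKO 6, 20 other pathway genes were higher. The causes were not tested.

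Of the 6 same-numbered pairs of mice, 3 had deviations correlated above 0.1 (r from -0.03 to 0.22), and 2 of 6 iADKO libraries correlated best with the control of their own number, so the numbers were not taken to pair the mice. With the replicate number as a block, and fl/fl 7 left out, 7 members were lower and none higher, as without it, and 30 and 11 other pathway genes were lower and higher. For same-numbered pairs, the difference in log2 ratio was 0.63 for *Irs2* to *Irs1* and -0.78 for *Akt2* to *Akt1* (exact sign-flip p = 0.0312, the smallest possible), and -0.23 for *Slc2a4* to the adipocyte markers (p = 0.0938). The 5 ratios past the threshold stayed past it, and *Trarg1* to *Slc2a4* below it, in each of 17 alternatives. With 6 and 7 mice, small changes can go uncalled. *Irs2* and *Lnpep* were not called and changed sign in 1 alternative fit each. The spread between mice and the error of counting were not compared.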
